A study of Mus musculus with 79 samples.

Results

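The opioid and neuropeptide B/W receptor signalling genes were followed in the hypothalamus of mice whose only functional Dnmt3a allele is altered in the PWWP domain. The set holds 8 of the 25965 genes in the RNA-seq table. It comprises the opioid receptors Oprk1, Oprm1 and Oprd1, the nociceptin receptor Oprl1, the precursor genes Pdyn, Penk and Pnoc, and Npbwr1, a receptor for neuropeptides B and W. All 8 were found in the table by name and all passed the filter on low values. The set was chosen on values of this same RNA-seq comparison, in which Oprk1 belongs to the study's differentially expressed genes. The expression difference between genotypes is therefore given as a description. Calls of the members in fits over all genes are printed beside the share of all genes called and support nothing. The tests that are read concern the histone marks, measured in other libraries. The wider pathway was tested in the same RNA-seq libraries, with lists chosen when earlier results were known, and its values are likewise a description.

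RNA-seq covered 5 +/+ and 4 Δ/D329A animals, and ChIP-seq covered 3 +/+ and 3 Δ/D329A libraries for each of H3K4me3, H3K27me3, H3K36me3 and input. All came from hypothalamus at 14 weeks of age. The sample labels give no sex. A supplementary legend of the paper calls the RNA-seq animals female, while a main legend gives male for both expression and marks. Whether RNA and marks come from the same sex is therefore not settled. The +/+ mice carry wild-type Dnmt3a on both alleles. In Δ/D329A mice the maternal allele Δ lacks exon 18, removed in the oocyte by Zp3-driven Cre, and the paternal allele carries the D329A change in the PWWP domain, and both are inherited by all tissues and are not restricted to neurons. Animals with Δ or D329A alone have only DNA methylation libraries in this series. The lost allele and the D329A change can therefore not be told apart in any value below. The line is on a C57BL/6Babr background. Each RNA-seq library is 1 animal, and the authors left out 1 further Δ/D329A RNA-seq library of low quality. The hypothalamus was taken whole, so fewer cells of a type and less RNA or mark per cell cannot be told apart in any value below.

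Opioid peptides are cut from large precursors in secretory vesicles. Prodynorphin (Pdyn) gives the dynorphins, which act mainly on the kappa receptor Oprk1. Proenkephalin (Penk) gives the enkephalins, which act on the delta receptor Oprd1 and the mu receptor Oprm1, and prepronociceptin (Pnoc) gives nociceptin, the ligand of Oprl1. All these receptors and Npbwr1 couple to inhibitory G proteins, which lower cyclic AMP, open inwardly rectifying potassium channels and close voltage-gated calcium channels. In the hypothalamus they act in feeding, fluid balance, stress and the secretion of pituitary hormones. H3K4me3 marks the starts of active or poised genes, H3K27me3 is set by Polycomb repressive complex 2, and H3K36me3 lies over the bodies of transcribed genes. The PWWP domain of DNMT3A binds H3K36me2 and H3K36me3 in vitro, and the paper calls H3K36me3 its putative target.

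RNA-seq libraries held 10519196 to 18386074 mapped reads, with 5501006 to 9738560 reads on genes in +/+ and 3841053 to 6529604 in Δ/D329A, and the ChIP-seq libraries held 12676361 to 30207875 reads. The H3K4me3 and H3K27me3 libraries fell into 2 sets by coverage of the mitochondrial genome, with +/+ replicate 3 and Δ/D329A replicates 2 and 3 at 31.8 to 48.1 RPM (reads scaled to the size of the library) for H3K4me3 and 19.6 to 39.5 RPM for H3K27me3, and the remaining 3 animals at 16 to 20.6 and 4.42 to 11.1 RPM. The H3K4me3 library of Δ/D329A replicate 1 stood apart by its background. Over the 307 tiles between Oprk1 and Npbwr1 it averaged 0.314 RPM per tile, against 0.0617 to 0.164 RPM in the 5 other H3K4me3 libraries.

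Expression in +/+ spanned a wide range across the set. In RPKM (reads scaled to transcript length and to the size of the library, a level per length), Oprl1 was highest at 15.5 ± 5.99 (SD, n = 5), followed by Penk at 13.0 ± 1.98 and Pdyn at 7.76 ± 2.77. Pnoc stood at 2.84 ± 0.825, Oprk1 at 2.21 ± 0.292 and Oprm1 at 1.71 ± 0.254. The lowest were Oprd1 at 0.735 ± 0.389 and Npbwr1 at 0.632 ± 0.142. The +/+ libraries of Pdyn and Pnoc did not overlap, nor did those of Oprm1 and Oprd1, while all other neighbours in this order overlapped. Pdyn and Penk, the precursors of dynorphins and enkephalins, were thus present at higher RPKM than the receptors Oprk1, Oprm1 and Oprd1 in each +/+ library.

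Oprk1, the kappa receptor gene (chr1:5588493-5606131, plus strand, GRCm38), was lower in Δ/D329A. Its 5 +/+ libraries measured 2.13, 2.39, 2.53, 2.24 and 1.77 RPKM from 204 to 268 reads, and the 4 Δ/D329A libraries 1.48, 1.22, 1.52 and 1.38 RPKM from 88 to 148 reads. Every Δ/D329A library lay below every +/+ library. The log2 difference was -0.66 ± 0.16 (SE), a level of 0.635 times that of +/+, and leaving out single libraries kept it between -0.73 and -0.59. Of all 17839 genes tested, 219 (1.23%) had every Δ/D329A library below every +/+ library. Oprk1 was the only member of the set for which the genotypes did not overlap.

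Npbwr1 (chr1:5913707-5917398, minus strand) lies on the same chromosome, 328905 bp from the start of Oprk1, with 0 genes of the table between them. It measured 0.766, 0.485, 0.729, 0.472 and 0.707 RPKM in +/+ and 0.352, 0.232, 0.611 and 0.511 RPKM in Δ/D329A, from 27 to 52 and from 9 to 30 reads. The groups overlapped, since Δ/D329A replicates 3 and 4 lay within the +/+ range, and the 2 lowest libraries of all were Δ/D329A replicates 1 and 2. The log2 difference was -0.63 ± 0.30, and it lay between -0.83 and -0.37 when single libraries were left out, the latter without Δ/D329A replicate 2.

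The other receptors had smaller differences. Oprm1, the mu receptor gene (chr10:6758506-7038198, plus strand), ranged from 1.44 to 2.05 RPKM in +/+ and from 1.43 to 2.16 in Δ/D329A, with a log2 difference of 0.06 ± 0.18. Oprd1, the delta receptor gene (chr4:132110726-132144486, minus strand), ranged from 0.369 to 1.37 RPKM and from 0.544 to 0.934 RPKM, with a difference of 0.19 ± 0.35. Oprl1, the nociceptin receptor gene (chr2:181715016-181720985, plus strand), ranged from 8.77 to 24.6 RPKM and from 10.9 to 14.3 RPKM, with a difference of -0.18 ± 0.26. For these 3 genes the Δ/D329A libraries lay within or close to the +/+ range, and +/+ replicate 1 was the highest +/+ library of each. That library also held the most reads on genes, 9738560 of 18386074 mapped reads. The fewest in +/+ were in replicate 5, with 5501006 of 16855658. RPKM is scaled to all mapped reads, and the part of this difference in single genes was not tested.

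Among the precursors, Pdyn (chr2:129686565-129699844, minus strand) measured 12.1, 8.17, 7.77, 5.68 and 5.06 RPKM in +/+ and 6.22, 4.54, 6.39 and 6.16 RPKM in Δ/D329A. Its log2 difference of -0.36 ± 0.24 was -0.18 without +/+ replicate 1, the highest library. Pnoc (chr14:65400673-65425472, minus strand) ranged from 1.95 to 3.67 RPKM in +/+ and from 1.28 to 2.44 RPKM in Δ/D329A, a difference of -0.45 ± 0.27, or -0.24 without Δ/D329A replicate 2. Penk (chr4:4133531-4138819, minus strand) ranged from 10.5 to 15.0 RPKM in +/+ and from 10.1 to 15.0 RPKM in Δ/D329A, a difference of -0.11 ± 0.17. The genotypes overlapped for each precursor.

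**Figure D1:**
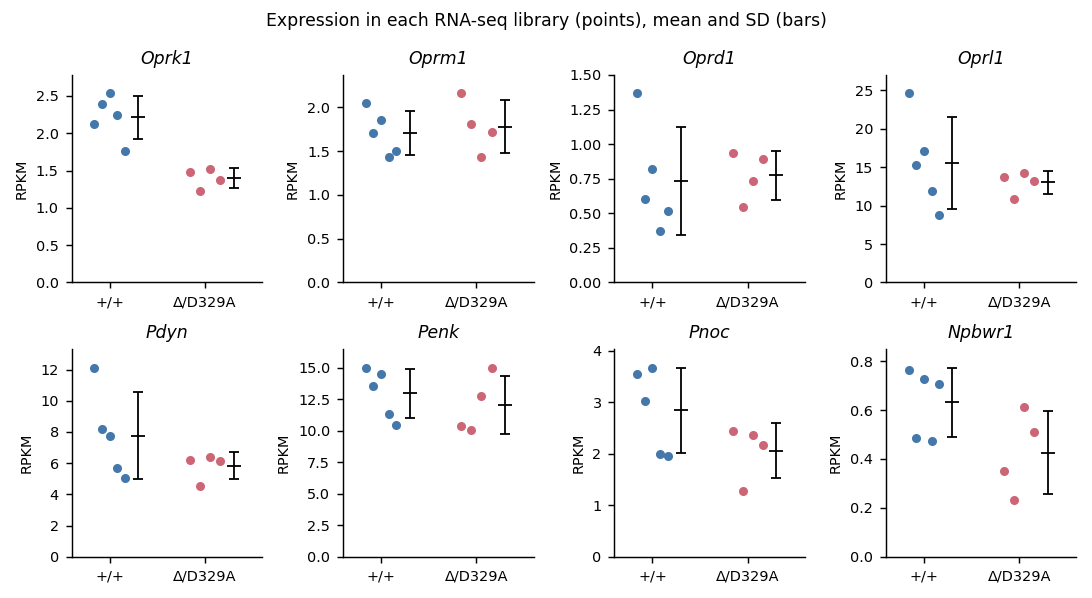
Expression of the 8 genes in RPKM (y axis, from 0) in each RNA-seq library of the 5 +/+ (blue) and 4 Δ/D329A (red) animals, with the mean and SD beside the points. The Δ/D329A points of Oprk1, 1.22 to 1.52 RPKM, all lie below the +/+ points, 1.77 to 2.53 RPKM, and the groups overlap in the other 7 panels.

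Across the set, 6 of 8 genes were lower in Δ/D329A and the median log2 difference was -0.27, while over all genes 40.4% were lower and the median difference was 0.06. That median over all genes depends on the setting. It was 0.02 with a filter of 0.5 RPKM and -0.0016 in edgeR. Single libraries set several signs and sizes of the members' differences. Oprl1 was at 0.01 without +/+ replicate 1, Oprd1 at -0.02 without +/+ replicate 4, Oprm1 at -0.04 without Δ/D329A replicate 1, and Penk at -0.03 without Δ/D329A replicate 2. At an adjusted p under 0.01 (limma with Benjamini-Hochberg adjustment over all genes), 0 of 8 were called, and 0.107% of all genes were called in either direction and 0.0224% lower. At an unadjusted p under 0.05 limma counted 1 of 8, Oprk1, and 7.62% of all genes. edgeR on the recovered reads also called 0 of 8, where it called 0.554% of 13890 genes, and DESeq2 called Oprk1 alone, where it called 1.52% of 16427 genes. As the set was chosen on this comparison, nothing is read from these counts.

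Of the genes beyond the set, 3 overlap a member. Gm10945 runs against Oprm1 over its start, with starts 3255 bp apart, at 0.951 ± 0.113 RPKM in +/+ and 1.23 ± 0.187 in Δ/D329A, and Ipcef1 overlaps the far end of Oprm1 at 1.32 ± 0.294 and 1.36 ± 0.104 RPKM. A830012C17Rik overlaps the start of Penk and was near 0, at 0.0512 ± 0.0240 and 0.0691 ± 0.0445 RPKM. Neither Gm10945 (log2 difference 0.37 ± 0.17, limma adjusted p = 0.355) nor Ipcef1 (0.08 ± 0.20, adjusted p = 0.949) passed the test. The paper's supplement describes the libraries of a browser view as opposite-strand specific, but whether the counting used the strand is not given in the sources used here. How far reads of these overlapping genes were separated is therefore unknown.

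The remaining pathway was taken as 6 lists of 50 genes, all measured and all tested, of which limma called 0 higher and 0 lower. At the same threshold edgeR called 1 of 50 higher, and DESeq2 called 1 higher and 1 lower, against 0.554% and 1.52% of all genes, and nothing is read from these counts about the lists. Adcy1, a neuronal adenylyl cyclase, was the gene called higher by both, with 5.39 ± 1.26 RPKM in +/+ and 9.20 ± 2.53 in Δ/D329A (log2 difference 0.77 ± 0.22, limma adjusted p = 0.355). Mme, the endopeptidase neprilysin that cleaves enkephalins, was the gene called lower, by DESeq2, at 1.43 ± 0.363 against 0.711 ± 0.191 RPKM (-1.01 ± 0.25, limma adjusted p = 0.255).

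By list, 6 of 8 precursor and processing genes had a negative difference (median -0.09), among them Pomc, the precursor of beta-endorphin, at 15.5 ± 10.8 RPKM in +/+ and 7.23 ± 3.34 in Δ/D329A (-1.06 ± 0.45), and Npb, a precursor of an Npbwr1 ligand, at 0.283 ± 0.260 and 0.136 ± 0.0207 RPKM. Of 7 peptide-degrading enzymes 3 were negative (median 0.06). Anpep, an aminopeptidase, differed by 0.23 ± 0.38. Of 7 genes of inhibitory G proteins 3 were negative (median 0.02), with Gng2 at -0.25 ± 0.17 and Gnb1 at 0.16 ± 0.16. Of 10 effector channels and cyclases 3 were negative (median 0.05), and Kcnj6, a potassium channel opened by G proteins, differed by 0.39 ± 0.15. Of 10 regulators of receptor signalling 3 were negative (median 0.07), with the arrestin Arrb2 at 0.33 ± 0.19 and Rgs9, which speeds G protein inactivation, at -0.30 ± 0.17. Of 8 related receptors 5 were negative (median -0.04), with Sstr5 at -0.30 ± 0.35 and Galr1 at -0.27 ± 0.15. None of these passed limma's test, and the median over all genes was 0.06.

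Of the markers of neighbouring regions and other cell types, limma called 1, Pou4f1, where it called 0.107% of all genes. All 5 thalamic markers had positive differences (median 0.73, 0 of 5 called by limma), and their summed level was 8.99 to 13.3 RPKM in +/+ and 13.3 to 30.5 in Δ/D329A. Of 5 tested cortical projection markers 4 were positive (median 0.34, 0 called), at 3.80 to 6.28 and 5.35 to 7.23 RPKM. Of 9 striatal markers 4 were positive (median -0.13, 0 called), at 29.3 to 59.0 and 34.1 to 40.5 RPKM. Of 5 medial habenula markers 2 were positive, with Pou4f1 called higher (5.28 ± 0.47, adjusted p = 0.000607), while the list sums were 5.65 to 13.3 and 5.57 to 9.69 RPKM. The paper names Pou4f1 among the normally repressed transcription factor genes that rise and gain DNA methylation in Δ/D329A. Which cells gave its reads here was not tested. The hypothalamic list summed to 428 to 896 RPKM in +/+ and 489 to 704 in Δ/D329A, with 9 of 14 genes negative (median -0.09, 0 called). For the anterior pituitary the sums were 0.645 to 17.0 and 3.25 to 11.8 RPKM (median -0.01). Sums for glial and vascular cells were 106 to 195 and 125 to 190 RPKM for astrocytes (median 0.20), 261 to 404 and 173 to 328 for oligodendrocytes (-0.20), 24.0 to 53.1 and 31.1 to 55.0 for microglia (0.29), and 14.3 to 30.6 and 18.2 to 24.0 for endothelial cells (0.05), with 0 called in any of them by limma. At the same threshold edgeR called 1 striatal, 1 cortical and 1 habenula marker higher and 2 hypothalamic markers lower. DESeq2 called 2 thalamic and 2 cortical markers, 1 striatal and 1 habenula marker higher, and 2 hypothalamic, 1 striatal and 1 oligodendrocyte marker lower. Of all genes, edgeR called 0.554% and DESeq2 1.52%. Nothing is read from these counts about cell types. No marker in the table had 0 reads over all libraries. The part of these markers in the expression of the 8 genes was not tested.

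To see which genes varied most like each member between animals, deviations of log2 RPKM from the genotype means were correlated over the 9 libraries with those of all genes at a mean of 1 RPKM or more. The highest Pearson r for Oprk1 were with Yes1 (0.983), Zfp386 (0.973) and Myl9 (0.965). Those for Oprm1 were Nkd1 (0.967), Chml (0.967) and Ildr2 (0.956), and those for Oprd1 were Iffo1 (0.995), Cntnap1 (0.991) and Hectd3 (0.991). Oprl1 followed Mrps26 (0.997), Rps6kc1 (0.995) and Prmt7 (0.995). Pdyn followed 8430419L09Rik (0.996), Limd1 (0.995) and Tmtc4 (0.995), and Penk followed Btd (0.979), Nthl1 (0.975) and Ascc1 (0.966). Pnoc followed Cdkn1b (0.993), Sox8 (0.990) and Mex3c (0.987), and Npbwr1 followed Tmem198b (0.952), Zfp846 (0.933) and Ppia (0.929). After centring each library on its median, 6 of these 24 genes stayed among the 3 highest (Ppia and Tmem198b, Hectd3, Mrps26, 8430419L09Rik and Cdkn1b), and none did for Oprk1, Oprm1 and Penk, whose highest were then Gm14027, Zfp236 and Serpine2. These are descriptions over 9 libraries that share their scaling and depth with every gene in them, and each is among the 3 highest of 11505 or 11506 genes compared.

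The histone marks first show the state of each promoter, from 1500 bp before to 500 bp after the start of the gene in the table, as the mean RPM over 2 overlapping tiles of 2000 bp. In +/+, 6 of the 8 promoters carried both H3K4me3 and H3K27me3 above input, namely Oprk1, Oprd1, Pdyn, Penk, Pnoc and Npbwr1, where 10% of all 25952 promoters did (limma, adjusted p under 0.05 for each mark). The same count of 6 was obtained with the Δ/D329A libraries, where 9.99% of all promoters carried both. Both marks over a region of whole tissue need not lie on the same cells.

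H3K4me3 was above input at 7 of the 8 promoters, against 57.5% of all promoters in +/+ and 56.2% in Δ/D329A, where 7 of 8 passed as well. Oprl1 had the largest value in +/+, a log2 difference over input of 4.33 ± 0.30 (SE, 3 against 3 libraries, adjusted p = 1.06e-05), and Pdyn the smallest of the 7, at 2.04 ± 0.37 (adjusted p = 0.00186). Oprd1 reached 3.77 ± 0.24, Npbwr1 3.54 ± 0.21, Penk 2.98 ± 0.15, Pnoc 2.78 ± 0.11 and Oprk1 2.74 ± 0.19. Oprm1 alone lay below input, at -2.70 ± 0.25.

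H3K27me3 was above input at 6 of 8 promoters in +/+ and at 6 in Δ/D329A, where 20.2% and 22.7% of all promoters were. In +/+, Oprd1 stood at 2.09 ± 0.24, Penk at 2.07 ± 0.13, Pdyn at 2.06 ± 0.20, Npbwr1 at 1.76 ± 0.21, Pnoc at 1.4 ± 0.13 and Oprk1 at 0.87 ± 0.21 (adjusted p = 0.00816). The mark at Oprl1 was not distinguishable from input (0.25 ± 0.32, adjusted p = 0.521). Oprm1 was below input at -0.72 ± 0.22 (adjusted p = 0.0227, or 0.0567 with the replicate number as a block, since each animal gave all marks and input). That call was also lost without replicate 2 or 3 of either input or H3K27me3 (adjusted p = 0.0521 to 0.0900).

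Over gene bodies, from 500 bp after the start to the end, 7 of the 8 genes had either mark above input and Oprm1 had neither. H3K27me3 was above input over Penk (1.43 ± 0.10), Pdyn (1.08 ± 0.07), Npbwr1 (1.0 ± 0.18), Pnoc (0.72 ± 0.10) and Oprd1 (0.47 ± 0.09), which is 5 of 8 against 21.1% of all gene bodies, and 5 of 8 against 22.0% in Δ/D329A. H3K36me3 was above input over Oprl1 (0.96 ± 0.09, adjusted p = 0.000161) and Oprk1 (0.37 ± 0.05, adjusted p = 0.000547), 2 of 8 against 40.6% in +/+ and again 2 of 8 against 39.3% in Δ/D329A. Each of the 5 genes with H3K27me3 above input over the body had H3K36me3 below input, from -1.18 ± 0.16 for Pdyn to -0.62 ± 0.14 for Oprd1, and Oprm1 was at -0.03 ± 0.05, with H3K27me3 at -0.30 ± 0.08 (adjusted p = 0.0121). Penk and Pdyn, among the 3 genes of the set with the highest RPKM, thus had the highest H3K27me3 over the body relative to input and H3K36me3 below input.

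**Figure D2:**
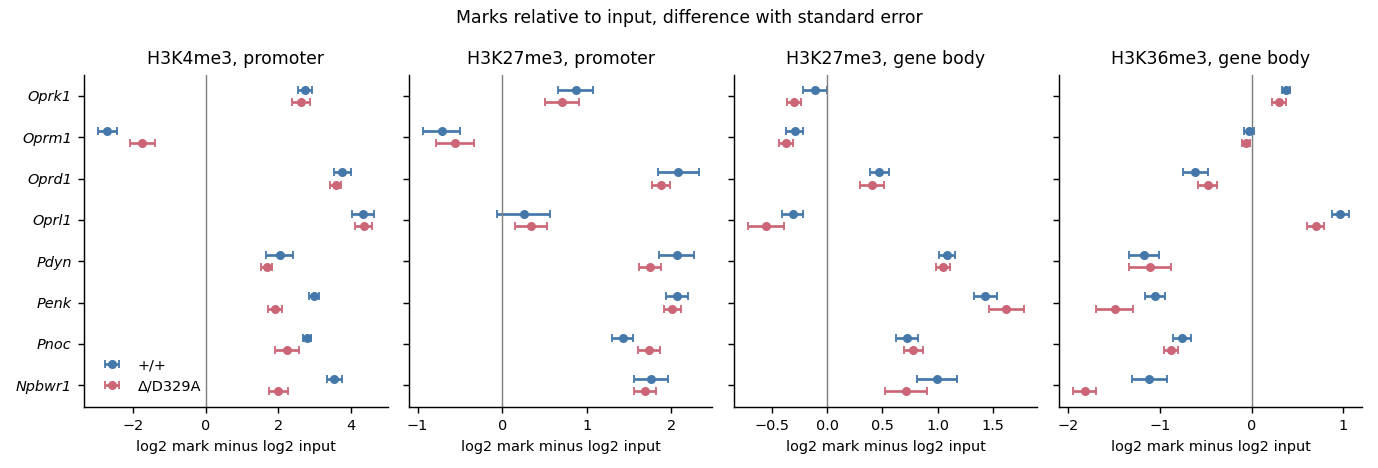
Difference between log2 mark and log2 input (x axis) with its standard error for each gene, in +/+ (blue) and Δ/D329A (red), for H3K4me3 and H3K27me3 at promoters and H3K27me3 and H3K36me3 over gene bodies. At promoters all genes but Oprm1 lie right of 0 for H3K4me3, and over bodies Oprk1 and Oprl1 are right of 0 for H3K36me3 while Penk, Pdyn, Npbwr1, Pnoc and Oprd1 are right of 0 for H3K27me3.

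Promoter sequences from RefSeq (GRCm38.p6, 250 bases before to 50 after a start) were matched by symbol for 4 of the 8 genes, Oprm1, Oprd1, Oprl1 and Pdyn. They are shown because they range from both marks (Oprd1, Pdyn) to H3K4me3 alone (Oprl1) and neither mark (the first start of Oprm1). The first RefSeq start of each gene is given, and a further one for Oprm1, with CpG sites, which DNMT3A can methylate along with non-CpG cytosines, in capitals:
Oprd1, chr4:132144437-132144736, minus strand: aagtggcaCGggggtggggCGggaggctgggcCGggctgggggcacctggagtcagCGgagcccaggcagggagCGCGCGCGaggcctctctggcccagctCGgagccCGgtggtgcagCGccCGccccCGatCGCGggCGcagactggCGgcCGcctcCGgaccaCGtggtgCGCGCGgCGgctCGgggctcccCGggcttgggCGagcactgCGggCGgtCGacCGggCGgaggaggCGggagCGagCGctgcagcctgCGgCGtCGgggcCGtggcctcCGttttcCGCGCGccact
Pdyn, chr2:129699889-129700188, minus strand: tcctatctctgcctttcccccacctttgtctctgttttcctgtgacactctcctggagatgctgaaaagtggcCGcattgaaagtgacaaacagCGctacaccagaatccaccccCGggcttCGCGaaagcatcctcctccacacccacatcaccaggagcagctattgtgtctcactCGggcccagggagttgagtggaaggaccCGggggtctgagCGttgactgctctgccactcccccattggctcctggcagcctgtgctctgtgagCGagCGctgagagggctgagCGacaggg
Oprl1, chr2:181714766-181715065, plus strand: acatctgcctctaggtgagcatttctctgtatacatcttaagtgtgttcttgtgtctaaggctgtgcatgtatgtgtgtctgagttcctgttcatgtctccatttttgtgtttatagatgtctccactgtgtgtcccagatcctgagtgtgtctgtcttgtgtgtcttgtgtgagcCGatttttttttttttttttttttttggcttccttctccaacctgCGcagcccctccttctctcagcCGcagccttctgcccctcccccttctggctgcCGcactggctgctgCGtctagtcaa
Oprm1, first start, chr10:6758343-6758642, plus strand: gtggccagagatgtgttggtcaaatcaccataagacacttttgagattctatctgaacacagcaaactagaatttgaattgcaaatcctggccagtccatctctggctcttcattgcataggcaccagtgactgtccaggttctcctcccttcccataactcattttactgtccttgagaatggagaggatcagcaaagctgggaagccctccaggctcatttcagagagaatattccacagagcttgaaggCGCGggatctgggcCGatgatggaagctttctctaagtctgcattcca
Oprm1, further start, chr10:6788320-6788619, plus strand: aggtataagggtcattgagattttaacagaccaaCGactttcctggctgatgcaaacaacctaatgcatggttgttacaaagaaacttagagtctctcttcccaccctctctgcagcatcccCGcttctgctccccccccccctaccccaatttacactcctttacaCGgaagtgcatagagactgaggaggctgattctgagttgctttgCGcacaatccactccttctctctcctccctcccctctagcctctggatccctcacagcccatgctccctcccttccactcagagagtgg

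Oprd1 has 43 CpG in its 300 bases, a number that 2.61% of the 32851 promoters of the same length reach, whose median is 7. Pdyn has 11, a number that 41.4% of promoters reach, and Oprl1 has 5, reached by 62.0%. The Oprm1 windows have 3 and 4, reached by 76.7% and 68.6%. The cyclic AMP response motif TGACGTCA, searched as written since it reads the same on both strands, was found in none of these 5 windows and in 1.79% of all promoters. Oprl1, with few CpG in its window, had the most H3K4me3 of the set at its table start, and Oprd1, with the most CpG of the 4 genes that had a sequence, carried both marks. The marks were averaged over tiles of 2000 bp, so they cover more DNA than the 300 bases counted. The highest H3K4me3 tile of Oprl1 was centred 984.5 bp after its start, at 38.0 RPM in +/+.

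The window used for Oprm1 lies at its first annotated start, where H3K4me3 was 0.0755 ± 0.0367 RPM in +/+, from 1 to 5 reads in each of the 6 libraries. A further start, shared by 15 annotated transcripts, lies 30303 bp downstream, past the further RefSeq window printed above. The tile centred 30494.5 bp from the first start held the highest H3K4me3 of the gene, at 21.8, 23.6 and 33.2 RPM in +/+ and 13.7, 28.9 and 24.5 RPM in Δ/D329A, so that the genotypes overlapped. H3K27me3 in that tile was 1.5 ± 0.664 RPM in +/+ and 1.75 ± 0.641 in Δ/D329A, beside input at 0.90 ± 0.113 and 1.01 ± 0.314. The promoter values of Oprm1 elsewhere in the text hold for the first start.

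Between genotypes, 0 of 8 members were called for any of the 3 marks at promoters or over bodies (limma, adjusted p under 0.05 over all regions). Calls were rare everywhere: 0% of promoters for H3K4me3 and for H3K27me3, 0.0231% for H3K36me3, and 0% of gene bodies for H3K4me3, 0.00846% for H3K27me3 and 0% for H3K36me3. At an unadjusted p under 0.05, 3 members differed in promoter H3K4me3 (Npbwr1, Oprm1 and Penk) where 3.47% of all promoters did, and 3 in promoter H3K27me3 (Npbwr1, Penk and Pnoc) where 8.90% did. For H3K36me3 these counts were 1 promoter (Oprl1) against 6.58% and 2 bodies (Npbwr1 and Oprl1) against 16.1%. For body H3K4me3 they were 2 (Npbwr1 and Penk) against 3.53%, and for body H3K27me3 0 against 13.0%. edgeR on whole reads called 1 member, Npbwr1, for promoter H3K4me3, where it called 1.45% of 15897 promoters, and 0 in the 5 other comparisons. Beside them it called 1.40% of promoters for H3K27me3 and 0% for H3K36me3, where 1 of 8 members had enough reads to be fitted, and 0.00506%, 0.170% and 2.18% of bodies for H3K4me3, H3K27me3 and H3K36me3.

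At the Npbwr1 promoter H3K4me3 was lower in Δ/D329A, at 8.76, 9.18 and 11.3 RPM in +/+ and 3.57, 6.90 and 5.32 RPM in Δ/D329A. The groups did not overlap. The log2 difference was -0.92 ± 0.26 and did not pass limma over all promoters (adjusted p = 1). It passed when promoters under a mean of 0.5 RPM were left out (adjusted p = 0.00628) and in edgeR on whole reads (adjusted p = 0.0310), where 1 of the 7 members tested was called by each, against 1.68% of 16482 promoters with the filter and 1.45% of 15897 in edgeR. Without the Δ/D329A replicate 1 library of high background it was -0.67, and after centring each library on its median, which raised all H3K4me3 promoter differences by 0.21, it was -0.71. With the mitochondrial coverage sets as a block it was -1.10 (adjusted p = 0.515).

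H3K27me3 at the same promoter was 2.55, 3.24 and 2.50 RPM in +/+ and 4.0, 3.61 and 4.65 RPM in Δ/D329A, again without overlap, with a log2 difference of 0.55 ± 0.15 (adjusted p = 0.429). Input there was also higher in Δ/D329A, at 1.31, 1.19 and 1.08 RPM against 0.544, 0.95 and 0.774 RPM in +/+. Less input, the difference in H3K27me3 was -0.07 ± 0.21 (limma adjusted p = 0.959) and that in H3K4me3 -1.54 ± 0.34 (adjusted p = 0.697). The input there rested on 8 to 38 reads in each library. Over the short Npbwr1 body, H3K4me3 was 1.89 ± 0.0871 and 1.12 ± 0.243 RPM (-0.73 ± 0.16, adjusted p = 0.780) and H3K36me3 0.285 ± 0.0285 and 0.223 ± 0.0258 RPM (-0.26 ± 0.10, adjusted p = 0.307).

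At Penk the differences had the same signs and were smaller. Promoter H3K4me3 was 6.01, 5.06 and 6.50 RPM in +/+ and 2.76, 3.63 and 3.87 RPM in Δ/D329A, without overlap (-0.77 ± 0.18, adjusted p = 1, or 0.109 with the filter of 0.5 RPM and 0.0773 in edgeR). H3K27me3 was 2.93, 2.94 and 3.30 RPM against 3.76, 3.78 and 3.40 RPM, also without overlap (0.25 ± 0.09, adjusted p = 0.535), and -0.06 less input. Input at Penk was 0.652 ± 0.0827 RPM in +/+ and 0.827 ± 0.0185 in Δ/D329A, without overlap. The RPKM of Penk differed by -0.11 ± 0.17, within the spread of its libraries.

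At Pnoc, promoter H3K27me3 was 2.08, 2.40 and 2.43 RPM in +/+ and 4.03, 3.53 and 3.12 RPM in Δ/D329A, without overlap (0.60 ± 0.12, adjusted p = 0.382, and 0.31 less input). Input there was 0.795 ± 0.0703 and 0.997 ± 0.0631 RPM, also without overlap. The part of input in the H3K27me3 differences at these promoters was not tested beyond its subtraction. H3K4me3 there was 6.42, 5.79 and 5.94 RPM against 2.88, 6.07 and 7.42 RPM, a difference of -0.25 ± 0.36 that rests on Δ/D329A replicate 1 and is 0.15 without it. At the first Oprm1 start H3K4me3 was 0.0949, 0.0333 and 0.0985 RPM against 0.314, 0.158 and 0.290 RPM, without overlap but from 1 to 5 reads in each library (1.0 ± 0.28, adjusted p = 1).

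**Figure D3:**
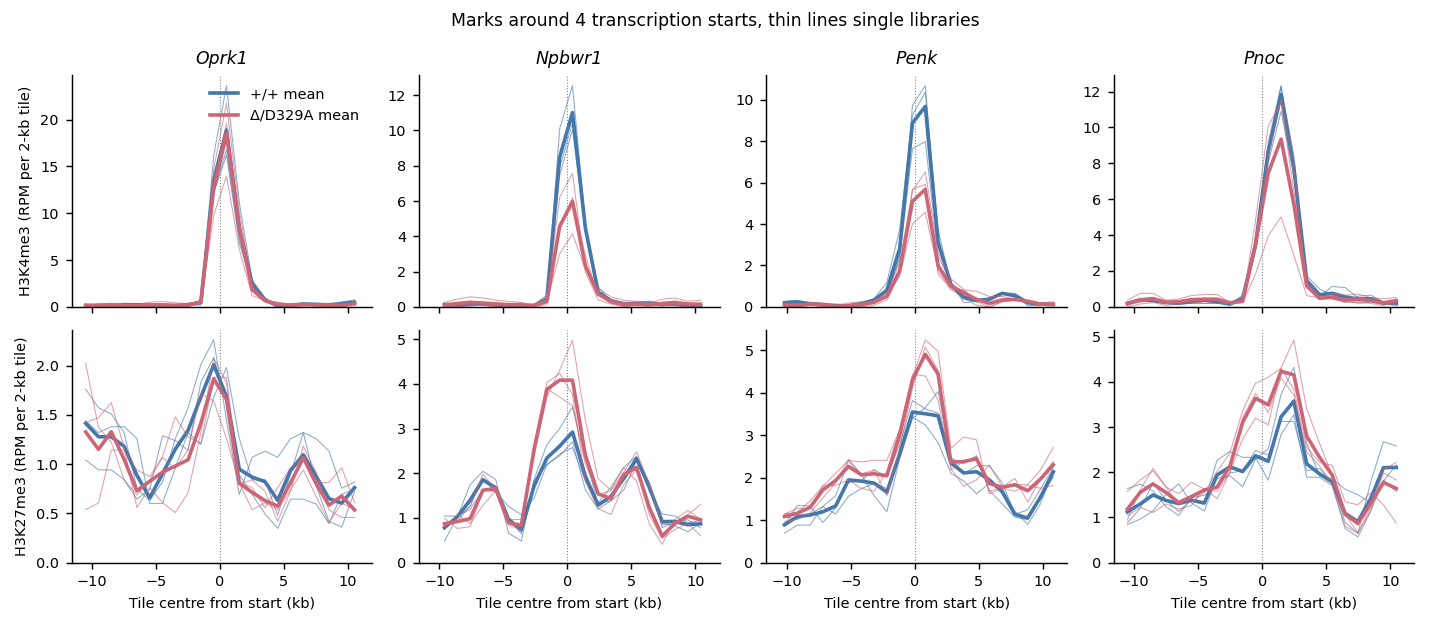
H3K4me3 (top) and H3K27me3 (bottom) in RPM per tile of 2000 bp, by distance of the tile centre from the start of Oprk1, Npbwr1, Penk and Pnoc in kb, with thin lines for single libraries and thick lines for the mean of 3 libraries in +/+ (blue) and Δ/D329A (red). The highest H3K4me3 tile of Npbwr1 averages 11 RPM in +/+ and 5.97 RPM in Δ/D329A, that of Penk 9.68 and 5.67 RPM, and that of Oprk1 18.9 and 18.5 RPM.

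Oprk1, the gene with the clearest separation in RPKM, had marks that overlapped between the genotypes. Its promoter H3K4me3 was 6.20, 6.35 and 8.41 RPM in +/+ and 5.08, 7.65 and 7.04 RPM in Δ/D329A (-0.09 ± 0.21, adjusted p = 1). H3K27me3 was 2.14, 1.44 and 1.96 RPM against 1.55, 1.68 and 1.70 RPM (-0.14 ± 0.16, adjusted p = 0.823), and H3K36me3 over the body 1.32, 1.21 and 1.34 RPM against 1.11, 1.37 and 1.15 RPM (-0.09 ± 0.09, adjusted p = 0.670). Over the 307 tiles between Oprk1 and Npbwr1, H3K27me3 averaged 0.810 ± 0.0646 RPM per tile in +/+ and 0.752 ± 0.0425 in Δ/D329A, beside input at 0.83 ± 0.0287 and 0.796 ± 0.0207, and H3K36me3 0.585 ± 0.0270 and 0.60 ± 0.0142 RPM.

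No mark at Oprl1 passed the test. Over its body H3K36me3 was 1.72, 1.92 and 1.99 RPM in +/+ and 1.49, 1.48 and 1.52 RPM in Δ/D329A, without overlap (-0.30 ± 0.06, adjusted p = 0.223), and H3K27me3 there was 0.692, 0.685 and 0.764 RPM against 0.444, 0.672 and 0.619 RPM, also without overlap (-0.28 ± 0.15, adjusted p = 0.470, and -0.12 without Δ/D329A replicate 1). Its promoter H3K4me3 was 20.9 ± 2.25 and 19.8 ± 4.52 RPM. At Oprd1, promoter H3K4me3 was 8.60 ± 0.387 and 9.34 ± 1.40 RPM and H3K27me3 2.62 ± 0.285 and 2.79 ± 0.0912 RPM, and at Pdyn they were 3.96 ± 1.81 and 3.59 ± 0.167 RPM and 3.75 ± 0.238 and 3.79 ± 0.538 RPM. For both genes each mark overlapped between genotypes.

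**Figure D4:**
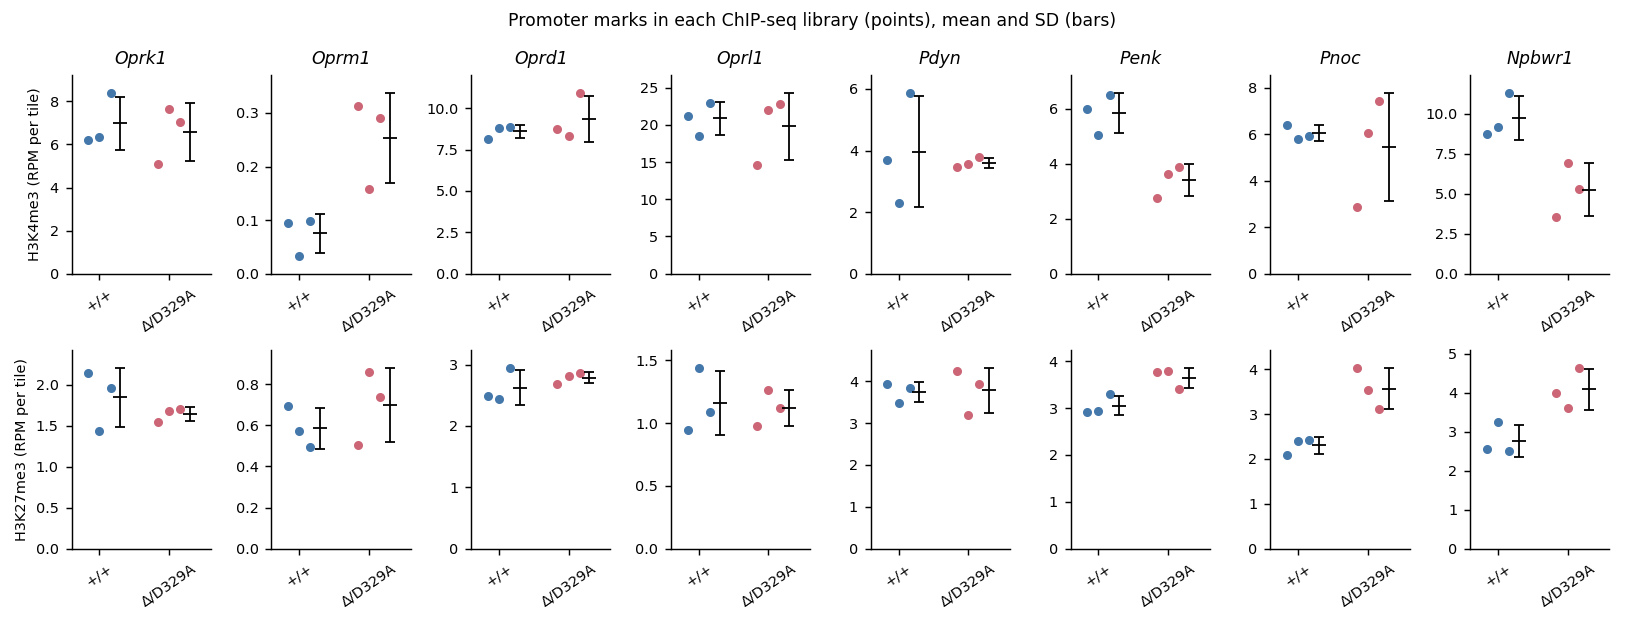
H3K4me3 (top) and H3K27me3 (bottom) at the 8 promoters in RPM per tile (y axes, from 0) in each of 3 +/+ (blue) and 3 Δ/D329A (red) libraries, with mean and SD. For H3K4me3 the groups do not overlap at Oprm1, Penk and Npbwr1, and for H3K27me3 at Penk, Pnoc and Npbwr1.

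In all, the genotypes did not overlap at 3 of 8 promoters for H3K4me3, where 6.06% of all promoters did not, at 3 for H3K27me3 (13.6% of all) and at 2 for H3K36me3 (11.7%). Over bodies they did not overlap at 2 of 8 for H3K4me3 (6.64% of all), 1 for H3K27me3 (19.6%) and 2 for H3K36me3 (22.0%). Promoter H3K36me3 rested on 0 to 25 reads for each gene and library, too few to compare single genes.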

How the data were processed

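Deposited tables of 9 RNA-seq and 24 ChIP-seq libraries were used, and 46 bisulfite libraries of the series were not analysed here. The RNA-seq table holds log2 RPKM as deposited: the authors had mapped trimmed reads with HiSat2 (GRCm38) and summed each gene's exons in SeqMonk, and a gene without a read carries a value worth 0.9 reads. The ChIP-seq table holds a deposited signal, made with Bowtie and SeqMonk: reads in tiles of 2000 bp every 1000 bp, scaled by the authors to library size (RPM), with input kept as libraries of its own. The submitters' processing notes name Trim Galore 0.4.3, HISAT2 2.0.5 and Bowtie2 2.3.2. The paper's methods name other versions and Bowtie.

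Whole reads were recovered from all RNA-seq values within 0.02 reads and from the ChIP-seq signal within 0.01, and were used for edgeR 4.0.16 and DESeq2 1.42.0 (100% of RNA-seq values were whole, and the count tests called 77 and 249 genes). Genotypes were compared in log2 RPKM by limma 3.58.1 (R 4.3.3, files joined in Python 3.11.15) with a variance trend. Genes needed 0.1 RPKM in 4 libraries or more, 13 mitochondrial genes were left out, and calls were made below an adjusted p (Benjamini-Hochberg) of 0.01. Marks were averaged over tiles centred in a region and compared as log2(RPM + 0.1) over all regions at an adjusted p under 0.05. All tests are two-sided. Replicates are separate animals by the paper's methods, and each ChIP-seq animal gave all 3 marks and input. Read numbers set the precision of low genes, and intervals of counting error were not computed.

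Pathway lists cover precursors and processing, peptide-degrading enzymes, inhibitory G proteins, effector channels and cyclases, receptor regulators and related receptors. Cell type lists cover striatal, cortical projection, thalamic, medial habenula and hypothalamic neurons, anterior pituitary, astrocytes, oligodendrocytes, microglia and endothelial cells. Rgs9 and Pomc are each in 2 lists. The members and lists were chosen with earlier results of these data known. Genes named are all members, genes of a pathway list that were called or else the 2 with the largest difference, the 3 most like each member, and genes that overlap a member or start within 5 kb of it. Pou4f1 falls outside this rule and was named after its values were seen. The limma comparisons of the genotypes and edgeR for expression were also run on simulated data. DESeq2, edgeR on the marks and the fits against input were not. Alternatives were other pseudocounts, filters, scalings, regions, tiles and tools, subtraction of input, blocks and leaving out each library, and the use of Δ/D329A libraries against input was added after seeing the data.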

Additional observations from a re-analysis of the deposited data

Results flagged for a closer look

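In Δ/D329A replicate 2, Pdyn measured 4.54 RPKM, apart from the 3 other Δ/D329A libraries at 6.16 to 6.39 RPKM, with a gap to the nearest of 0.896 of the range of the group on the log2 scale. It was the only such library in 16 groups (8 genes in 2 genotypes), and chance flags about 1 in 20 groups. The same library was the lowest of its genotype for every other member except Oprm1. It also held the fewest reads on genes of its genotype, 3841053 of 10519196 mapped reads. The part of this in the Pdyn value was not tested.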

How the results depend on the processing

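Across all genes, 19 expression calls became 11 with a filter of 0.5 RPKM, 34 with median centring, 77 in edgeR and 249 in DESeq2, and 11 to 18 when single libraries were left out. The replicate block gave 16. Same-numbered animals of the 2 genotypes share only a number: their deviations correlated at -0.0543 to 0.137 in RNA-seq.

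For marks by genotype, the filter of 0.5 RPM, median centring and edgeR called 277, 28 and 230 promoters for H3K4me3 in place of 0, and 222, 54 and 174 for H3K27me3 in place of 0, with 4 for overlapping tiles. For H3K36me3 promoters, 6 calls became 0 with a pseudocount of 1, the filter, centring, input subtracted, edgeR and the replicate block, 2 with overlapping tiles and 5 to 19 without single libraries. Over bodies, H3K4me3 went from 0 to 46 (filter), 4 (centring), 1 (input) and 1 (edgeR). H3K27me3 went from 2 to 1 (pseudocount 1, centring, overlapping tiles), 16 (filter), 34 (edgeR) and 0 (input, replicate block, mitochondrial coverage sets, and each library left out), and H3K36me3 from 0 to 3 (overlapping tiles), 466 (edgeR) and 0 to 4 (libraries left out). Counts over input without single libraries were 14770 to 14886 and 4671 to 5006 promoters for H3K4me3 and H3K27me3, and 4436 to 4939 and 9270 to 9481 bodies for H3K27me3 and H3K36me3. The causes were not tested.

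Oprk1 expression was -0.42 with a pseudocount of 1. None of the member differences that changed sign had passed the test. They include promoter H3K27me3 of Npbwr1 and Penk, 0.55 and 0.25 before input was subtracted. With centring, promoter H3K4me3 was 0.12 for Oprk1, 0.17 for Pdyn and 0.11 for Oprl1, and H3K27me3 0.014 for Oprl1. Less input, H3K4me3 was 0.029 for Oprl1 and -0.19 for Oprd1, promoter H3K27me3 -0.072 for Npbwr1, -0.31 for Pdyn, 0.092 for Oprl1, -0.057 for Penk and -0.20 for Oprd1, and body H3K27me3 -0.29 for Npbwr1. Pnoc H3K4me3 was 0.00046 in edgeR and Pdyn H3K27me3 -4.2e-05 with overlapping tiles. Without single libraries promoter H3K4me3 ranged from -0.21 to 0.084 for Oprk1, -0.37 to 0.29 for Pdyn, -0.21 to 0.11 for Oprl1, -0.010 to 0.18 for Oprd1 and -0.52 to 0.15 for Pnoc. Promoter H3K27me3 ranged from -0.079 to 0.12 for Pdyn and -0.16 to 0.12 for Oprl1, or -0.095 to 0.46 over input. Body H3K27me3 ranged from -0.0022 to 0.33 for Npbwr1, -0.18 to 0.0087 for Oprd1 and -0.030 to 0.13 for Pnoc. Body H3K36me3 ranged from -0.23 to 0.23 for Pdyn and -0.0026 to 0.26 for Oprd1, and over input from -0.065 to 0.00023 for Oprm1. Against input the replicate block changed 1 call of a member, Oprm1 H3K27me3 (adjusted p = 0.0567). Promoters with under 10 reads a library limit what can be compared.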
